A study of Bos taurus with 2 samples.

Results

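Expression of the collagen genes was measured by RNA sequencing in cattle (Bos taurus), in seminiferous tubules, which are the sperm-forming tubes of the testis. The tubules came from calves aged 3 and 9 months, and each age had 1 library. The labels give the age and the tissue of each library and name no breed, treatment or genetic change. Collagen genes were found by their symbol, COL followed by a number, the letter A and a number, which 42 of the 24616 listed genes carried in both tables. The gene COL4A3BP matched the pattern but encodes a ceramide transfer protein and was set aside, which left 41 collagen genes. By the structures their proteins form, 10 of them are fibrillar, 6 belong to basement membranes, 10 are fibril-associated and 15 are of other kinds. COL6A4, COL6A5, COL24A1 and COL28A1 are not analysed here.

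Collagens are secreted proteins whose chains wind around each other into a stiff helix. Fibrillar collagens assemble into the fibres that give connective tissue its strength, fibril-associated collagens bind to the surface of those fibres, and type IV collagens form the sheet-like network of basement membranes. In the testis a basement membrane lies between the cells of the tubule and the peritubular myoid cells around it, with layers of fibrillar and type VI collagen in the tubule wall and in the tissue between tubules.

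Total counts were 37600534 at 3 months and 29782234 at 9 months. Levels compared between libraries are CPM, counts relative to a fixed library size, on library sizes scaled by TMM, the trimmed mean of log ratios, and levels compared between genes are the deposited RPKM, which are also relative to gene length. A fold is the ratio of scaled counts and is followed by its 95% exact counting interval in brackets. Log2 ratios are of the 9-month to the 3-month library with a prior count of 2. With 1 library per age there is no replicate and no test, the intervals cover counting error only, and each value compares these libraries and not the ages in general. A gene was called lower or higher when it was at least 2-fold different and its interval did not include a ratio of 1. Bulk levels are relative, so fewer cells of a type, less RNA per cell and more RNA from other cells cannot be told apart. How much tissue from between the tubules each library held was not tested.

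Collagen expression was lower in the 9-month library. Collagen genes took 0.923% of all counts at 3 months (0.920 to 0.927, exact binomial 95% interval) and 0.296% at 9 months (0.294 to 0.298), and their summed expression was 10802 and 2528 CPM. All 41 genes had at least 1 count in each library, and 40 had at least 10 counts over both and are called measured here. COL19A1, a fibril-associated collagen, had 3 and 6 counts and fell below that minimum. Of the 40 genes 23 were lower, 8 were higher and 9 were not called (8 within 2-fold, and COL25A1), which is 57.5% lower and 20% higher. Over all 18025 measured genes the same rule called 22.8% lower and 28% higher. At 4-fold or more, 15 collagens were lower and 5 higher, beside 8.59% and 17.6% of all measured genes. The median log2 ratio of the collagens was -1.31, beside 0.02 for all measured genes.

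**Figure D1:**
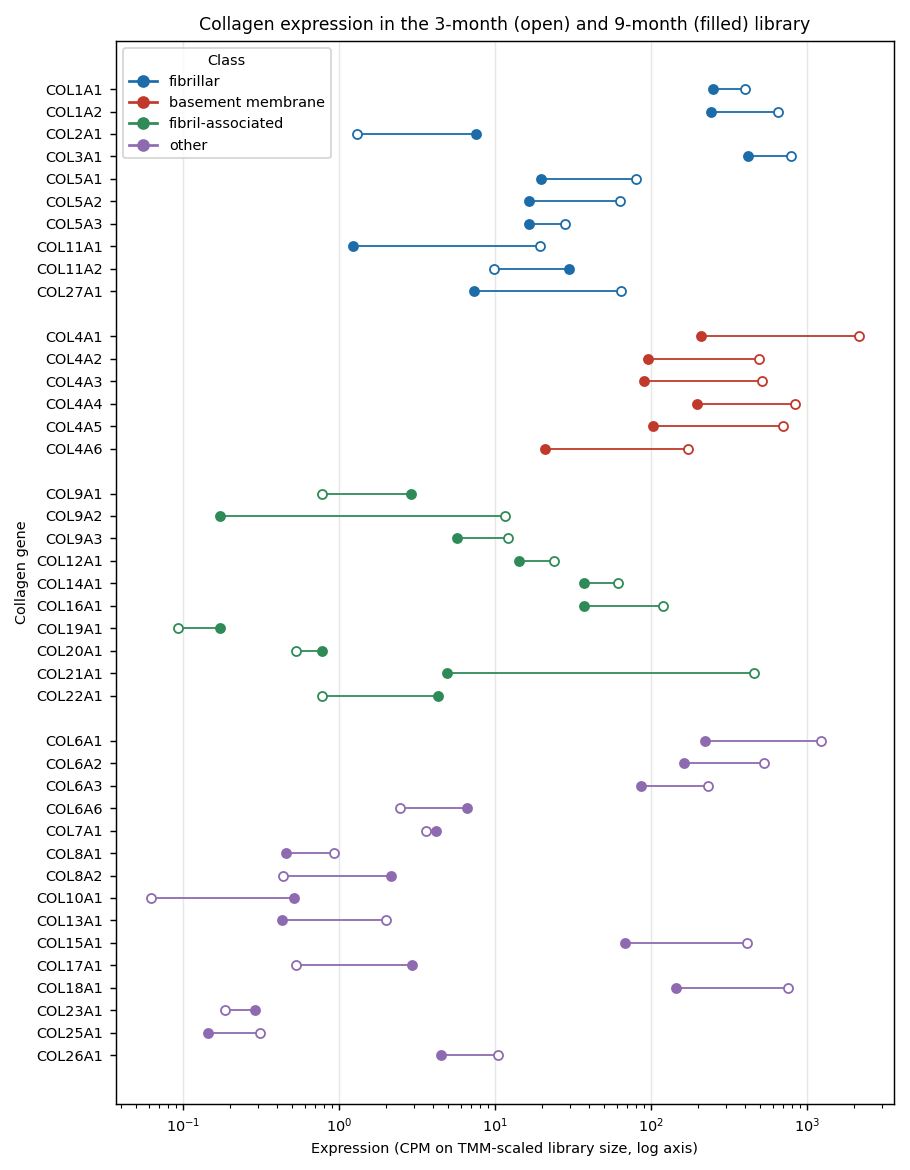
Each row is a collagen gene, grouped by class, with its expression in CPM on a log axis in the 3-month library (open circle) and the 9-month library (filled circle). The 6 basement membrane genes all lie further left at 9 months, while the genes further right at 9 months lie under 10 CPM in both libraries, apart from COL11A2 at 29.7 CPM.

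Abundant collagens were mostly lower, while the shares called among scarce ones lay nearer those of all genes at their level. Of the 20 collagens with a mean of at least 5 RPKM over both libraries, 17 were lower, 0 higher and 3 within 2-fold (median log2 ratio -2.22). Among all genes at that level 23% were lower and 25% higher. The mean includes both compared values, so a gene could pass through 1 library alone. COL21A1 passed through the 3-month library alone (243 and 3.57 RPKM). So did COL4A6 (29.0 and 4.78), COL5A2 (12.0 and 4.28), COL5A1 (10.8 and 3.60) and COL27A1 (9.27 and 1.45), all called lower. COL11A2, called higher, stood at 1.61 and 6.67 RPKM and fell under the cut with a mean of 4.14. The cut thus depends on the compared values, and the counts of lower and higher genes above it are only descriptive. Of the 20 measured collagens with a mean under 5 RPKM, 6 were lower (30%) and 8 higher (40%). Of all genes at that level 22.5% were lower and 33.2% higher. The median log2 ratio was 0.35 for these collagens and 0.16 for all those genes. Most collagen transcripts are long. Among the 30 measured collagens with gene models of 4000 bases or more 18 were lower and 5 higher, while of all such genes 15.6% were lower and 30.6% higher. Over 5 ways of scaling the libraries, 29 of the 40 log2 ratios were below 0 in all, 11 were above 0 in all and 0 changed sign. A change of scaling moves all log2 ratios by nearly the same amount, so only ratios near 0 could have changed sign. The size of the ratios did depend on the scaling. With reference-gene scaling COL1A1 stood at -0.004, COL14A1 at -0.05, COL12A1 at -0.07 and COL5A3 at -0.08.

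**Figure D2:**
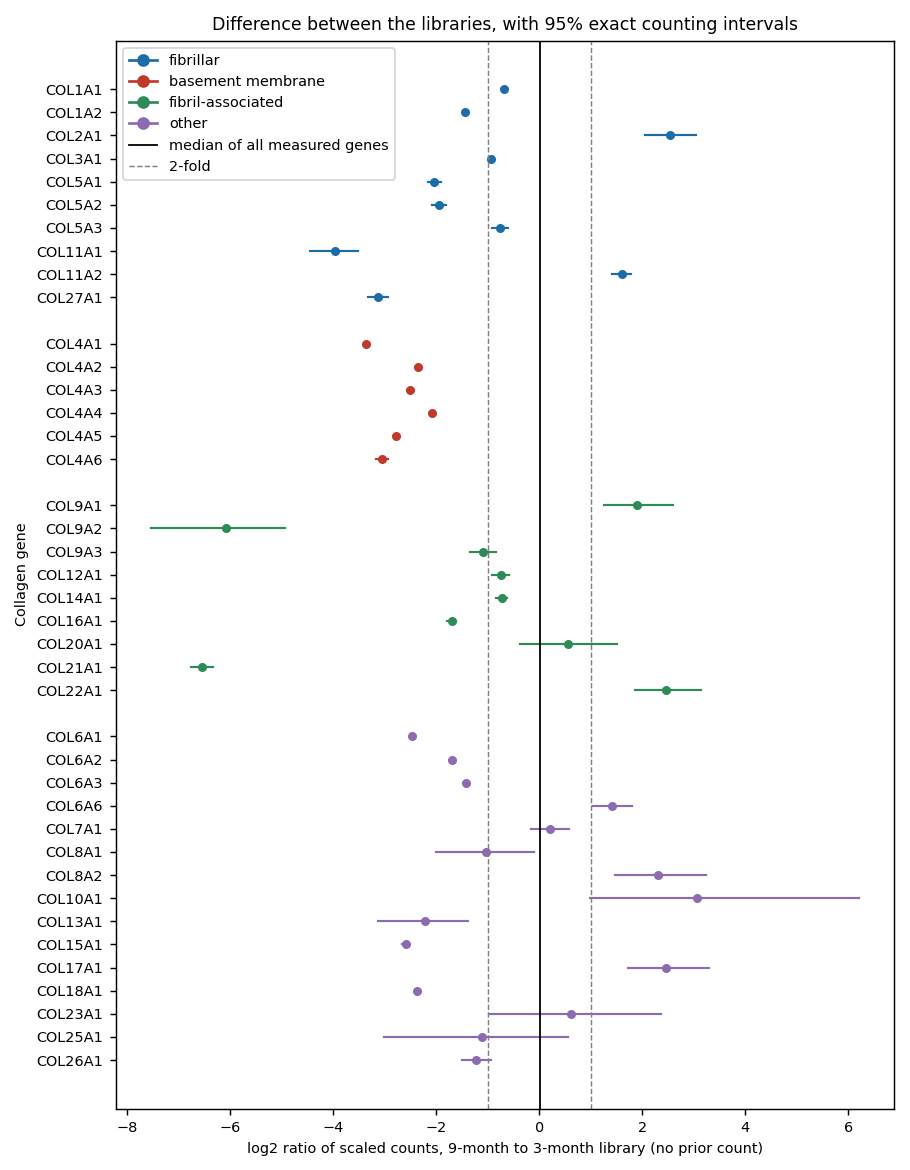
Points are log2 ratios of scaled counts without a prior count for the 40 measured collagens, 9-month to 3-month library, with 95% exact counting intervals as lines. The solid vertical line is the median of all measured genes and the dashed lines mark 2-fold. Basement membrane genes form a compact group on the left, and the fibril-associated genes spread most widely.

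Basement membrane collagens were lower without exception, by 4.24-fold to 10.2-fold (median log2 ratio -2.64). Of all measured genes 22.8% were lower, and 8.59% were lower by 4-fold or more. With reference-gene scaling the median log2 ratio of these collagens was -1.96, and that of COL4A4 was -1.41, less than 4-fold. Type IV collagen has 6 chains, which assemble in fixed sets: the alpha1 and alpha2 chains occur together in most basement membranes, the alpha3, alpha4 and alpha5 chains form a separate network, and alpha6 assembles with alpha5. COL4A1 (ENSBTAG00000012849), the alpha1 chain, had the highest RPKM of all collagens in the 3-month library. It stood at 2145 CPM there and at 209 CPM in the 9-month library, which was 10.2-fold lower [9.999 to 10.5]. By RPKM it ranked 1st among collagens at 3 months and 7th at 9 months. COL4A2 (ENSBTAG00000025210), its alpha2 partner, stood at 488 and 95.4 CPM and was 5.11-fold lower [4.92 to 5.31].

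The chains of the other type IV networks were lower to a similar extent. COL4A3 (ENSBTAG00000021316), the alpha3 chain, stood at 512 CPM at 3 months and 89.6 CPM at 9 months, a difference of 5.71-fold [5.49 to 5.93]. COL4A4 (ENSBTAG00000021310), the alpha4 chain, stood at 831 and 196 CPM and differed least of the 6, by 4.24-fold [4.13 to 4.36]. In RPKM, COL4A4 was the fifth most abundant collagen in each library. COL4A5 (ENSBTAG00000014575), the alpha5 chain, stood at 702 and 103 CPM and was 6.82-fold lower [6.58 to 7.06]. COL4A6 (ENSBTAG00000013760), the alpha6 chain, had the lowest level of the 6, at 172 and 20.8 CPM, and was 8.30-fold lower [7.68 to 8.98]. In RefSeq assembly ARS-UCD2.0 COL4A4 overlaps RHBDD1, a rhomboid protease gene whose log2 ratio was 0.06, against -2.08 for COL4A4.

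Fibrillar collagens differed among themselves, with 5 of 10 lower, 2 higher and 3 within 2-fold (median log2 ratio -1.18). For comparison, 22.8% of all measured genes were lower and 28% higher. The chains of types I and III, the main fibre collagens of connective tissue, were abundant in both libraries. COL1A1 (ENSBTAG00000013103) stood at 398 CPM at 3 months and 248 CPM at 9 months, a ratio within 2-fold at 1.60-fold lower [1.56 to 1.65]. With reference-gene scaling its log2 ratio was -0.004. COL3A1 (ENSBTAG00000021466), the chain of type III, stood at 792 and 415 CPM, 1.91-fold lower [1.87 to 1.95], and was 2.05-fold lower with upper-quartile scaling. COL1A2 (ENSBTAG00000013472), the alpha2 chain of type I, stood at 653 and 242 CPM and was 2.70-fold lower [2.64 to 2.77]. The type I and III genes thus held more of their 3-month level than COL4A1: from the 3-month to the 9-month library the ratio of COL4A1 to COL1A1 in RPKM went from 4.42 [4.34 to 4.50] to 0.692 [0.671 to 0.714].

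Type V collagen is built into fibres with type I and helps to set their width. COL5A1 (ENSBTAG00000047998) stood at 80.4 CPM at 3 months and 19.6 CPM at 9 months, 4.09-fold lower [3.76 to 4.46], and COL5A2 (ENSBTAG00000027020) at 63.2 and 16.4 CPM, 3.84-fold lower [3.50 to 4.22]. COL5A3, a rarer chain of the same type, stood at 27.9 and 16.5 CPM and lay within 2-fold. COL27A1 (ENSBTAG00000019807), a fibrillar collagen best known from cartilage, was 8.75-fold lower [7.68 to 10.003], at 64.3 and 7.35 CPM.

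The chains of types II and XI, which are characteristic of cartilage, were scarce and differed in direction among themselves, with COL11A1 lower and both others higher. COL11A1 (ENSBTAG00000021217), the alpha1 chain of type XI, went from 619 counts (19.3 CPM) to 43 counts (1.23 CPM) and was 15.6-fold lower [11.4 to 21.8]. COL11A2 (ENSBTAG00000000601), its partner chain, stood at 9.80 and 29.7 CPM and was 3.03-fold higher [2.67 to 3.45]. COL2A1 (ENSBTAG00000013155), the chain of type II, went from 42 to 263 counts, 1.31 and 7.55 CPM, which was 5.78-fold higher [4.16 to 8.21]. In RPKM, COL11A1 was the most abundant of the 3 at 3 months (2.25) and the least abundant at 9 months (0.197).

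The fibril-associated collagens held the widest differences. Of the 9 measured, 4 were lower, 2 higher and 3 within 2-fold (median log2 ratio -0.75). The shares among all measured genes were 22.8% lower and 28% higher. COL21A1 (ENSBTAG00000033515), a fibril-associated collagen of blood vessel walls and other connective tissues, stood at 454 CPM at 3 months and 4.88 CPM at 9 months. Its counts were 14582 and 170, and it was 93.0-fold lower [79.9 to 109]. This was the fifth lowest log2 ratio of the 18025 measured genes. By RPKM it ranked 3rd among collagens at 3 months (243) and 20th at 9 months (3.57). The gene model behind these values is 1599 bases long, short for a collagen, and is the same for both libraries. Its effect on the counts and the RPKM was not tested.

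Type IX collagen is made of the products of COL9A1, COL9A2 and COL9A3 and decorates type II fibres, mainly in cartilage and the eye. COL9A2 (ENSBTAG00000020622) went from 374 to 6 counts, or from 11.6 to 0.172 CPM, and was 67.6-fold lower [30.7 to 185], the 13th lowest log2 ratio of all measured genes. COL9A3 (ENSBTAG00000015581) stood at 12.2 and 5.71 CPM and was 2.13-fold lower [1.79 to 2.54], a call that was lost under plain totals (1.56-fold) and under reference-gene scaling (1.33-fold). COL9A1 (ENSBTAG00000035054) was scarce, at 0.778 and 2.90 CPM, and 3.73-fold higher [2.39 to 6.03]. The genes of this single molecule therefore had log2 ratios of -5.66, -1.08 and 1.82. In the RefSeq assembly COL9A3 and TCFL5, a germ cell transcription factor gene, overlap at their ends, and TCFL5 had a log2 ratio of 3.09.

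The remaining fibril-associated genes differed less. COL16A1 (ENSBTAG00000010050), found near basement membranes and on fibres, stood at 120 CPM at 3 months and 36.9 CPM at 9 months and was 3.25-fold lower [3.05 to 3.46]. COL14A1 (ENSBTAG00000013369), a collagen on the surface of mature fibres, stood at 61.2 and 36.9 CPM, and COL12A1, a related collagen of tissues under tension, at 23.8 and 14.1 CPM. Both lay within 2-fold, at 1.66-fold [1.55 to 1.78] and 1.68-fold [1.50 to 1.89] lower. With reference-gene scaling their log2 ratios were -0.05 and -0.07. COL22A1, a collagen of tissue junctions such as that of muscle and tendon, went from 25 to 150 counts and was 5.54-fold higher [3.61 to 8.83]. COL20A1 had 17 and 27 counts and an interval that included a ratio of 1, but was called higher under plain totals (2.01-fold) and reference genes (2.34-fold).

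Type VI collagen forms beaded filaments that link cells and basement membranes to the surrounding fibres. COL6A1 (ENSBTAG00000011802), its alpha1 chain, ranked second among collagens by RPKM in each library. It stood at 1220 and 220 CPM and was 5.54-fold lower [5.41 to 5.68]. COL6A2 (ENSBTAG00000019269) stood at 527 and 162 CPM and was 3.25-fold lower [3.15 to 3.35], and COL6A3 (ENSBTAG00000030190) at 231 and 86.3 CPM, 2.68-fold lower [2.56 to 2.79]. The call of COL6A3 was lost with plain library totals (1.96-fold) and reference genes (1.67-fold), and that of COL1A2 likewise (1.98-fold and 1.69-fold). COL6A6, a further type VI chain, was scarce and went the other way, from 79 to 229 counts, 2.67-fold higher [2.06 to 3.50].

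COL15A1 and COL18A1 encode collagens of the basement membrane zone that carry side chains of sugar, and the end of the COL18A1 protein can be released as endostatin. COL18A1 (ENSBTAG00000023907) stood at 749 CPM at 3 months and 145 CPM at 9 months, 5.17-fold lower [5.02 to 5.33]. COL15A1 (ENSBTAG00000010082) stood at 408 and 67.8 CPM, 6.03-fold lower [5.77 to 6.30]. Their folds lay within the range of the 6 type IV chains.

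The other members of the remaining class were scarce, at no more than 10.4 CPM in either library. COL26A1 stood at 10.4 and 4.48 CPM and was 2.33-fold lower [1.92 to 2.83], a call that plain totals (1.70-fold) and reference genes (1.46-fold) did not give. COL13A1, a transmembrane collagen, went from 64 to 15 counts, 4.62-fold lower [2.61 to 8.74]. Higher at 9 months were COL17A1, the transmembrane collagen of the hemidesmosomes of skin, from 17 to 102 counts (5.54-fold [3.29 to 9.87]), and COL8A2, a network-forming collagen, from 14 to 75 counts (4.94-fold [2.77 to 9.47]). COL10A1, the collagen of growth plate cartilage, had 2 and 18 counts, a ratio of 8.30 [1.99 to 73.8]. In the RefSeq assembly it overlaps NT5DC1, whose log2 ratio was 1.38, so that its few counts are uncertain. COL8A1 had 30 and 16 counts and was 2.03-fold lower [1.07 to 3.99], a call that remained with TMM and upper-quartile scaling but not with the other 3. COL7A1, the anchoring fibril collagen, lay within 2-fold at 116 and 145 counts, as did COL23A1 at 6 and 10 counts. COL25A1 had 10 and 5 counts and was 2.17-fold lower, with an interval that included 1 [0.675 to 8.08].

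The make-up of collagen expression differed between the libraries, a comparison within each library that uses no scaling between them. Fibrillar collagens made up 18.8% of the summed collagen RPKM at 3 months and 41.0% at 9 months. Basement membrane collagens made up 38.0% and 25.9%, fibril-associated collagens 14.0% and 4.38%, and the other collagens 29.1% and 28.7%. Most of the fibril-associated share at 3 months was COL21A1, with 12.0% of all collagen RPKM. Without it the fibril-associated share was 2.32% and 3.82%, the fibrillar share 21.4% and 41.2% and the basement membrane share 43.2% and 26.1%. The 5 most abundant genes took 54.6% of collagen RPKM at 3 months (COL4A1, COL6A1, COL21A1, COL3A1 and COL4A4) and 55.3% at 9 months (COL3A1, COL6A1, COL1A1, COL1A2 and COL4A4). COL3A1 alone went from 7.35% to 17.4% and COL4A1 from 15.7% to 6.94%.

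**Figure D3:**
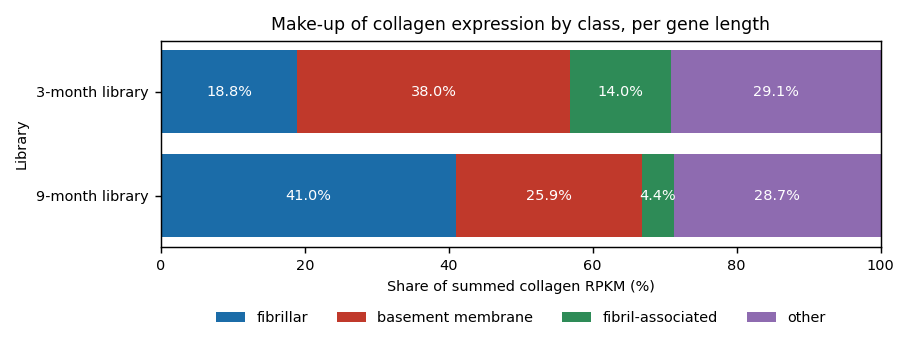
Bars give the share of summed collagen RPKM, in percent, that each class took in the 3-month and the 9-month library. The fibrillar share is 18.8% and 41.0%, and the basement membrane share 38.0% and 25.9%.

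Chains that build the same molecule were compared by the ratio of their RPKM within each library. COL1A1 stood below COL1A2 in the 3-month library, at a ratio of 0.595 [0.582 to 0.609], and level with it in the 9-month library, at 1.00 [0.974 to 1.03]. COL4A1 exceeded COL4A2 3.78-fold [3.71 to 3.85] at 3 months and 1.89-fold [1.81 to 1.97] at 9 months. COL6A1 exceeded COL6A2 2.43-fold [2.39 to 2.48] and 1.42-fold [1.38 to 1.47], and COL6A3 13.1-fold [12.8 to 13.4] and 6.32-fold [6.05 to 6.59]. In types IV and VI the most abundant chain at 3 months thus moved closer to its partners at 9 months.

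In some other pairs the ratio changed less, although the type IV pairs among them moved further apart. COL5A1 to COL5A2 was 0.897 [0.846 to 0.951] and 0.842 [0.752 to 0.942], and the quotient of these ratios was 0.939, with an interval that included 1 [0.828 to 1.06]. COL4A4 exceeded COL4A3 1.62-fold [1.59 to 1.65] and 2.18-fold [2.09 to 2.27], and COL4A5 exceeded COL4A6 3.82-fold [3.71 to 3.94] and 4.65-fold [4.30 to 5.05]. The scarce types changed most: COL11A1 to COL11A2 went from 1.40 [1.22 to 1.60] to 0.0295 [0.0212 to 0.0401], COL9A3 to COL9A2 from 0.802 [0.694 to 0.926] to 25.4 [11.5 to 70.1], and COL8A2 to COL8A1 from 1.13 [0.552 to 2.19] to 11.3 [6.54 to 20.8]. The 9-month values of the last 2 rest on 6 counts of COL9A2 and 16 of COL8A1.

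**Figure D4:**
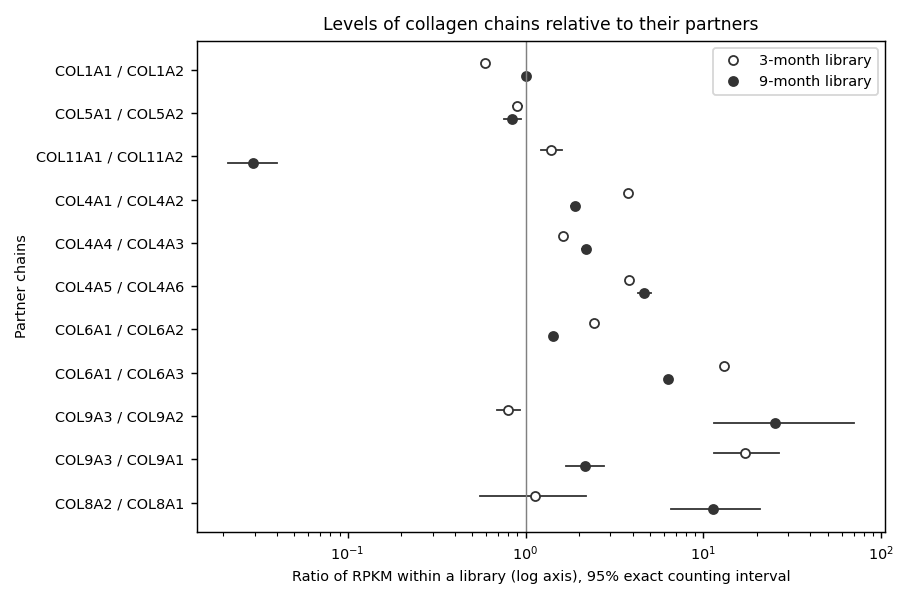
Each row is a pair of chains, with the ratio of their RPKM within the 3-month library (open) and the 9-month library (filled) on a log axis and 95% exact counting intervals. COL5A1 to COL5A2 stays near 0.9 in both, while COL11A1 to COL11A2 is 1.40 and 0.0295.

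Several collagen genes lie side by side in the RefSeq assembly, and the type IV genes are known to sit head to head with a shared start region. COL4A1 and COL4A2 had log2 ratios of -3.36 and -2.35, COL4A3 and COL4A4 of -2.51 and -2.08, and COL4A5 and COL4A6 of -2.77 and -3.05. For 2 further pairs the values were -2.47 and -1.70 for COL6A1 and COL6A2, and -0.93 and -1.94 for COL3A1 and COL5A2. In these 5 pairs both genes had log2 ratios below 0, as did 29 of all 40 measured collagens. Whether gene position has a part in this was not tested. Within a pair the log2 ratios differed by 0.28 (COL4A5 and COL4A6) to 1.00 (COL4A1 and COL4A2, and COL3A1 and COL5A2). A sixth pair, COL9A1 and COL19A1, had log2 ratios of 1.82 and 0.60 and is left out of this range because COL19A1 had too few counts to be called measured.

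Genes that modify and fold collagen chains in the endoplasmic reticulum were lower at 9 months nearly throughout. Of 19 such genes 17 were lower and 2 higher (median log2 ratio -1.89), beside 22.8% lower among all measured genes. SERPINH1, the collagen chaperone HSP47, stood at 947 and 188 CPM and was 5.05-fold lower [4.91 to 5.19] (named after its values were seen). The largest differences were those of P3H4, 8.08-fold lower [7.23 to 9.06], FKBP14, a prolyl isomerase, 7.83-fold [6.91 to 8.90], and P4HA2, a prolyl hydroxylase subunit, 5.74-fold [5.31 to 6.21]. P4HA3, a related subunit, was 3.09-fold higher [2.60 to 3.68], at 5.41 and 16.7 CPM, and TMEM38B was 2.02-fold higher [1.71 to 2.39]. With plain library totals 14 of the 19 were lower, and with reference genes 12, beside 14.7% and 11.6% of all measured genes.

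Later steps of collagen assembly were less uniform. Their counts stand beside 22.8% lower and 28% higher among all measured genes. Of 10 genes of the secretion of large cargo 1 was lower (3 with upper-quartile scaling), 1 higher and 8 within 2-fold. CREB3L2, a transcription factor for secretory genes, was 4.39-fold lower [4.01 to 4.81], while MIA3, which loads procollagen into transport carriers, stood at 349 and 268 CPM. The gene that was higher, listed as MIA2 and at no more than 1.81 CPM, may not be the one meant by the list. Of 10 measured genes of propeptide removal 6 were lower, 1 higher and 3 within 2-fold. PCOLCE2, an enhancer of procollagen C-proteinase, was 48.9-fold lower [43.7 to 54.8], at 446 and 9.13 CPM, and BMP1, the proteinase itself, was 7.73-fold lower [7.08 to 8.47]. The gene that was higher, TLL1, a related proteinase, had 12 and 35 counts. With plain library totals 2 of the 10 were lower and 2 higher, beside 14.7% and 36.2% of all measured genes.

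Of 6 genes that cross-link collagen 1 was lower, 1 higher and 4 within 2-fold, beside 22.8% lower and 28% higher among all measured genes. The median log2 ratio was -0.41 and turned to 0.03 under plain totals and 0.24 under reference-gene scaling. LOXL1, a lysyl oxidase best known for elastic fibres, was 3.39-fold higher [3.00 to 3.84], at 10.4 and 35.2 CPM, and LOXL3 was 2.55-fold lower [2.21 to 2.95], while under plain totals and under reference genes 0 of the 6 were lower. Among 8 measured collagen receptors 4 were lower, 1 higher and 3 within 2-fold. ITGB1, the beta chain of the collagen-binding integrins, stood at 1247 and 385 CPM, 3.23-fold lower [3.17 to 3.30], and MRC2, which takes up collagen fragments, was 5.75-fold lower [5.04 to 6.58]. ITGA11, the alpha chain of a receptor for fibrillar collagen, was 6.22-fold higher [4.93 to 7.95]. Of 7 measured genes of collagen breakdown 5 were lower and 1 higher. FAP was 35.7-fold lower [22.7 to 59.7] and MMP14 and MMP2, which activate and carry out matrix cleavage, 4.51-fold [4.06 to 5.01] and 4.48-fold [4.24 to 4.74]. The collagenase MMP13 went from 1 to 130 counts and was the gene that was higher (named after its values were seen). With reference genes 2 of the 8 receptors and 3 of the 7 breakdown genes were lower, beside 11.6% of all measured genes.

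The proteins that share the basement membrane with type IV collagen were mostly lower as well, with 11 of 18 lower, 2 higher and 5 within 2-fold (median log2 ratio -1.29). Among all measured genes 22.8% were lower and 28% higher. SPARC, which binds collagen, was 11.9-fold lower [11.7 to 12.0], TINAGL1 11.9-fold [10.3 to 13.8] and LAMB1, a laminin chain, 5.69-fold [5.53 to 5.86]. LAMA3, another laminin chain, stood at 12.3 and 128 CPM and was 10.4-fold higher [9.39 to 11.6]. With plain library totals 7 of the 18 were lower and 3 higher, and with reference genes 7 and 4. All measured genes were then lower in 14.7% and 11.6% of cases and higher in 36.2% and 41.2%.

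**Figure D5:**
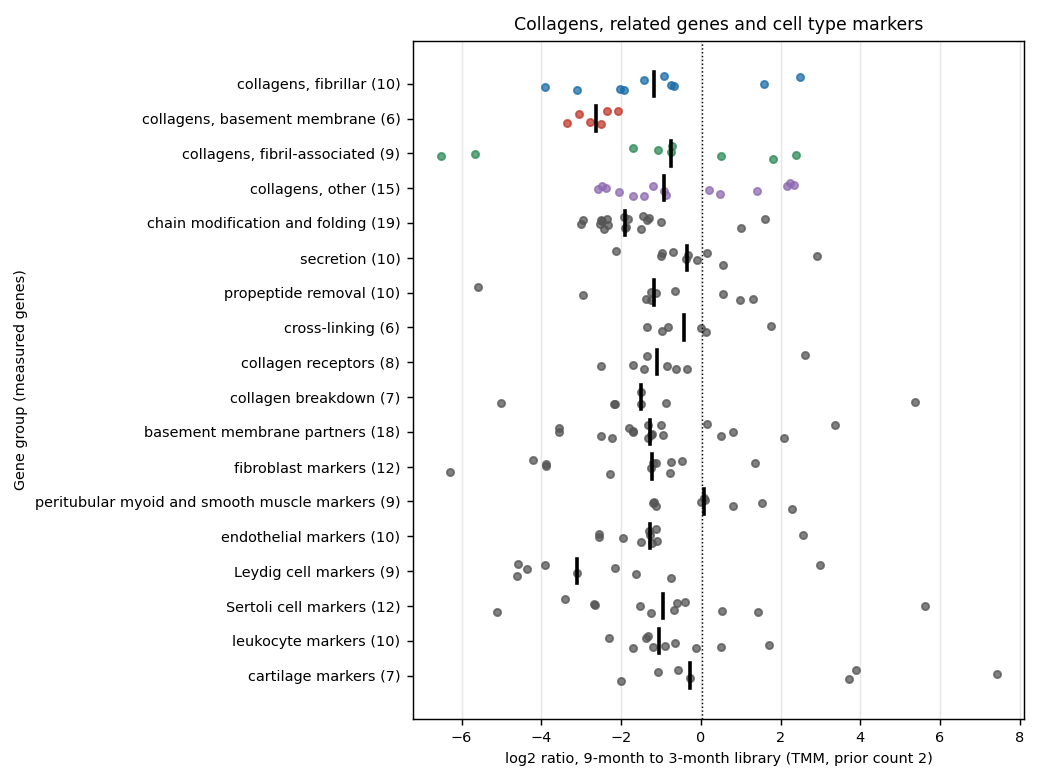
Points are log2 ratios of single measured genes, 9-month to 3-month library, with their number in brackets after each group's name and the median as a thick bar. The dotted line is the median of all measured genes. Points are spread vertically at random within a row. The bars of basement membrane collagens (-2.64) and of chain modification and folding (-1.89) lie left of that line, and that of peritubular myoid and smooth muscle markers (0.09) beside it.

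Markers of the cells that could hold collagen RNA moved in different directions, and their part in the collagen differences was not tested. Over all measured genes 22.8% were lower and 28% higher. Of 12 fibroblast markers other than collagens 8 were lower and 1 higher, with a summed level of 2504 and 378 CPM in the 3-month and 9-month library. LUM, a proteoglycan on collagen fibres, was 80.0-fold lower [68.0 to 94.7], DPT, which binds DCN, 18.6-fold [15.9 to 21.9] and TCF21, a transcription factor, 14.99-fold [13.3 to 17.0]. DCN, a proteoglycan related to LUM, was 14.7-fold lower [14.2 to 15.2] (named after its values were seen). Among 9 peritubular myoid and smooth muscle markers 3 were lower and 2 higher. Their median log2 ratio was 0.09 (-0.01 with upper-quartile scaling) and their sum 569 and 790 CPM. That sum includes the 2 higher genes, MYH11 (51.4 and 251 CPM) and ACTA2 (84.6 and 244 CPM). The 3 lower genes were CNN1 (2.30-fold), MYLK (2.25-fold) and SYNPO2 (2.17-fold), so the list did not move as a whole. Of 9 Leydig cell markers 7 were lower and 1 higher (18845 and 2833 CPM), of 10 endothelial markers 9 and 1 (271 and 152 CPM), of 12 Sertoli cell markers 6 and 2 (4623 and 876 CPM) and of 10 leukocyte markers 5 and 1 (499.9 and 259.5 CPM). The higher ones included HSD17B3 of the Leydig list (8.13-fold [6.42 to 10.4]), VWF of the endothelial list (5.91-fold [5.27 to 6.64]), CLDN11 of the Sertoli list (49.6-fold [43.2 to 57.2]) and AIF1 of the leukocyte list (3.30-fold [2.99 to 3.65]). With plain library totals fewer were lower: 5 fibroblast, 0 peritubular, 4 endothelial and 2 leukocyte markers. The share of all measured genes that were lower also fell, to 14.7%. None of the markers in these lists was at 0 counts in either library.

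Germ cell markers were higher throughout, and their part in the collagen differences was not tested. All 12 meiotic markers and all 12 spermatid markers were higher, and their sums went from 38.8 to 1047 CPM and from 2.30 to 3229 CPM, with 1 spermatid marker at 0 counts at 3 months. Of 7 cartilage markers, set beside the cartilage collagens, 3 were higher, 1 lower and 3 not called. Among all measured genes 28% were higher and 22.8% lower. COMP, a protein of cartilage and tendon that binds collagen, went from 8 to 1840 counts, MATN1 from 11 to 207 and ACAN, the main cartilage proteoglycan, from 42 to 622. LECT1 went from 54 to 13 counts.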

How the data were processed

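RNA was sequenced from 2 libraries, 1 per age. Per the submitters' processing notes, Trimmomatic 0.33, STAR 2.4.0 and genome build UMD3.1 were used. Not given in the sources used here: the program used for counting, its annotation, its strand setting and its handling of reads with several alignments. The deposited tables have no header, so units were read from the values. The authors deposited raw counts per Ensembl gene, a gene length and RPKM, which equals counts per kilobase relative to the table's own total (largest difference 0.000492% and 0.000496%).

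Counts were scaled by TMM in edgeR 4.0.16 under R 4.3.3, with factors 0.855 and 1.17 from genes with at least 10 counts. Folds carry 95% Clopper-Pearson intervals, and partner ratios within a library likewise, while changes of a ratio carry Wald intervals. Python 3.11.15 with scipy 1.17.1 was used. The code for calls and intervals was run on simulated counts with counting error only and few 4-fold changes, balanced in direction. That run could not test the calls under differences between animals or the many uneven differences seen here. Classes and gene lists were chosen with earlier results of these data known. A list symbol with several Ensembl genes was represented by the one with the most counts. Full values were given for collagens of at least 5 RPKM in the higher library, for partner chains, and for those at least 4-fold different with 50 counts or more. From each other list, up to 3 genes per direction were taken by size among those of at least 5 CPM, and some are not reported here. SERPINH1, MIA2, MIA3, TLL1, MMP13, DCN and LECT1 are outside that rule and were named after their values were seen. Alternatives were plain totals, DESeq2 1.42.0 size factors, upper-quartile and reference-gene scaling, count minimums and prior counts.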

Additional observations from a re-analysis of the deposited data

How the results depend on the processing

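Against TMM, log2 ratios shifted by 0.45 with plain library totals, 0.68 with reference genes, -0.10 with upper-quartile scaling and 0.03 with DESeq2 size factors. The number of lower collagens was 18, 18, 24 and 22 in the same order, and that of higher ones 9, 9, 8 and 8. Of all measured genes 14.7%, 11.6%, 24.9% and 22.2% were lower in that order, and 36.2%, 41.2%, 26.4% and 28.5% higher. Higher genes made up 55.1% of all called genes with TMM, 71.2% with plain totals and 78.0% with reference genes. The collagen median was -0.86 with plain totals, -0.64 with reference genes and -1.70 with a minimum of 50 counts, which left 35 genes. A change of scaling moves all log2 ratios by nearly the same amount. The distance of the collagen median from that of all genes therefore could hardly change. The median of all genes was 0.46 with plain totals and 0.68 with reference genes. Without mitochondrially encoded genes in the total, collagens took 1.01% and 0.319% of counts. By raw counts in place of RPKM, the shares at 3 and 9 months were 19.5% and 39.7% fibrillar, 44.9% and 28.3% basement membrane, 6.33% and 4.23% fibril-associated, and 27.8% for the others at 9 months. Leaving out COL21A1, an alternative added after seeing the data, gave at 3 months 21.4% fibrillar, 43.2% basement membrane, 2.32% fibril-associated and 33.1% others, and 3.82% fibril-associated at 9 months. No paired analysis was possible because each age has 1 library. No value can be separated from differences between animals or pieces of tissue, and genes with few counts, such as COL10A1, COL8A1 and COL9A2, have wide intervals.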

Other observations

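Proteins with a short collagen-like helix are encoded outside the COL symbols, and a group of 27 such genes and their relatives was put together by symbol after the data were seen (C1q chains and C1q and TNF related proteins, collectins, ficolins, emilins, scavenger receptors and others). Of the 24 measured, 18 were lower at 9 months, 0 higher and 6 not called (median log2 ratio -1.82). The shares among all measured genes were 22.8% lower and 28% higher. C1QTNF6 stood at 393 and 60.9 CPM and was 6.45-fold lower [6.16 to 6.75]. EMILIN1, a glycoprotein of elastic fibres, stood at 175 and 20.6 CPM, 8.46-fold lower [7.83 to 9.16]. COLEC12, a scavenger receptor with a collagen-like stalk, stood at 84.9 and 9.21 CPM, 9.21-fold lower [8.20 to 10.4]. COLQ, the collagen tail of acetylcholinesterase, had 25 and 30 counts. The ceramide transfer gene COL4A3BP, which shares only its name with the collagens, stood at 34.2 and 65.2 CPM and was 1.91-fold higher [1.77 to 2.05].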
